A study of Mus musculus with 6 samples.

Results

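Myo-inositol is a cyclic sugar alcohol that kidney cells take up, make, store as an osmolyte and break down. The genes described here are Miox, whose enzyme opens the inositol ring to give glucuronate and starts the breakdown route of mammals, the sodium-coupled inositol transporters Slc5a3 and Slc5a11, the synthase gene Isyna1, and the monophosphatase genes Impa1 and Impa2, whose enzymes release free inositol from inositol monophosphate. The genes were chosen by their roles and with the fall of Miox in NICD1 kidneys in view, so the differences of these genes between the groups are given as descriptions and without a test. Of the 6 genes, 4 are described, each from a single probe set, among 19937 genes measured, and Isyna1 and Impa2 are not analysed here. Miox is a gene of the proximal tubule, the segment that reclaims most of the filtered solutes. Slc5a11 is placed in that segment as well, whereas Slc5a3 is best known in the medulla, where its transcription is raised by the tonicity-responsive factor Nfat5 when cells need osmolytes.

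Whole-kidney RNA was compared between 3 wild-type littermate controls and 3 NICD1 mice of genotype Pax8rtTA TREICNotch1. In NICD1 mice the Pax8 promoter directs the reverse tetracycline transactivator to tubule epithelium, and the transactivator switches on a tetracycline-responsive transgene for the active, intracellular fragment of the receptor Notch1. Ages, the inducing agent, the length of induction and any treatment of the controls are not given in the sources used here. An Affymetrix array was run for every sample, and nothing in the labels says that samples were pooled or how litters were divided, so p-values measure the spread between these samples. All levels below are log2 values after the authors' RMA16 normalization, in which a difference of 1 is a doubling. A level on one probe set cannot be set against a level on another as an amount of RNA. Places relative to an array's median or to other genes describe brightness only.

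Array medians over all genes were 5.26 to 5.29 for controls and 5.38 to 5.41 for NICD1. Notch1 was at 6.45 to 6.65 in controls against 9.99 to 10.30 in NICD1. Whether its probe set reads the transgene, the endogenous gene or both was not examined. The labels give no sex, but the Y-linked genes Uty (7.28 to 7.62) and Kdm5d (6.14 to 6.63) lay above the median of every array in both groups, and Xist (2.72 to 3.11) lay below it. Defining kidney genes were present in controls, with Slc34a1 at 12.22 to 12.35 and Umod at 12.01 to 12.21. Of the 19937 genes, 32.7% passed at an adjusted p under 0.05 in the limma fit, 17.8% as higher and 14.9% as lower.

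The 250 bases before the annotated starts of the 3 measured genes with a RefSeq promoter entry (GRCm38.p6) are shown because the 3 genes were all lower in NICD1 while their upstream sequences differ in base composition. They lie at chr15:89334223-89334472 for Miox, chr16:92058072-92058321 for Slc5a3 and chr7:123214616-123214865 for Slc5a11, all on the plus strand. Capitals mark the only match to the motifs searched, the core of a site for the tubule transcription factor HNF1.
Miox: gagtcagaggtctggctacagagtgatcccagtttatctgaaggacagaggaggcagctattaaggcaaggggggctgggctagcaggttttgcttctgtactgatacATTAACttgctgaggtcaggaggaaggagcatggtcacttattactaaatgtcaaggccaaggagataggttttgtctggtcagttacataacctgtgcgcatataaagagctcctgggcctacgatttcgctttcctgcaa
Slc5a3: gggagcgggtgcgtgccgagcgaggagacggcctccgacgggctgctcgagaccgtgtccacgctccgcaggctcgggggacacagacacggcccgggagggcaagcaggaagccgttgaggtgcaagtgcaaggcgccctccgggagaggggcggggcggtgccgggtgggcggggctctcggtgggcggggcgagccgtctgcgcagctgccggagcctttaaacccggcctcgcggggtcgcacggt
Slc5a11: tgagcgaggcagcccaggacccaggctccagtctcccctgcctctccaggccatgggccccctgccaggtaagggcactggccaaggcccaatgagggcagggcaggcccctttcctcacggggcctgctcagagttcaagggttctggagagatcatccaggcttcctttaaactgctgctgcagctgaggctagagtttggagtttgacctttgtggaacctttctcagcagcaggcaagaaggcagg
GC content was 48.0% upstream of Miox, 74.8% upstream of Slc5a3 and 60.8% upstream of Slc5a11, against a median of 52.4% over 32851 promoters. The HNF1 core was searched as GTTAAT on both strands, and its match upstream of Miox lies on the opposite strand, 137 to 142 bases before the start. The same core was found in 6.43% of all promoters. The other motifs were the core TGGGAA of the Notch partner RBPJ (21.6% of promoters), the core CAAAGTCCA of HNF4 (0.384%) and the TonE consensus bound by Nfat5 (4.31%), and none of them was found in the 3 windows. A match is a stretch of letters and not a measured binding site, and a missing match concerns these windows alone. The window of Slc5a3 shares 236 of its 250 bases with that of Mrps6, a mitochondrial ribosomal protein gene that overlaps it on the same strand.

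Miox was close to uniform in controls and nearly lost in NICD1. Its levels were 11.28, 11.18 and 11.11 in control replicates 1 to 3, and 4.13, 4.13 and 5.59 in NICD1 replicates 1 to 3. The control arrays lay within 0.16 of each other, while the third NICD1 array stood 1.46 above the mean of the other two, a 2.76-fold higher level. Even that array lay 5.52 below the lowest control. The mean went from 11.19 ± 0.08 to 4.62 ± 0.85 (SD, n = 3), a difference of -6.57 (SE 0.34) or 95.1-fold, which leaves 1.05% of the control level. In controls the Miox probe set was brighter than at least 99.7% of genes on each array, and in NICD1 it lay between the percentiles 30.6 and 53.2, under the array's median on 2 of 3 arrays. RMA compresses dim values, so this fold is understated if the NICD1 level lies near the floor. Among all genes Miox had the sixth largest fall, just after the anion transporter Slco1a1 (-6.79) and just before the methyltransferase Inmt (-6.37).

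The inositol transporters were lower in NICD1 by similar amounts and differed in their spread. Slc5a11, also known as SMIT2, stood at 7.90, 8.19 and 8.34 in controls and at 5.87, 6.48 and 6.59 in NICD1. The groups were 1.31 apart at their nearest arrays, and NICD1 replicate 1 was the lowest. Its mean went from 8.14 ± 0.22 to 6.31 ± 0.39 (SD, n = 3), a difference of -1.83 (SE 0.19), or 3.55-fold. Slc5a3, also known as SMIT1, stood at 9.65, 8.98 and 8.53 in controls and at 7.23, 7.30 and 7.22 in NICD1. Here it was the controls that differed among themselves, over a range of 1.12, and the NICD1 arrays that agreed, within 0.08. The mean went from 9.06 ± 0.56 to 7.25 ± 0.05 (SD, n = 3), a difference of -1.81 (SE 0.23), or 3.50-fold. The control SD of Slc5a3 exceeded that of 99.6% of genes and its NICD1 SD exceeded that of 7.97%, against 86.1% and 95.1% for Slc5a11 and 29.3% and 99.7% for Miox. Without control replicate 1 the difference of Slc5a3 was -1.51, and without control replicate 3 it was -2.07.

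Impa1 differed least. Its levels were 7.40, 7.73 and 7.80 in controls and 6.96, 7.25 and 7.03 in NICD1. The lowest control stood only 0.16 above the highest NICD1 array. The mean went from 7.64 ± 0.21 to 7.08 ± 0.15 (SD, n = 3), a difference of -0.56 (SE 0.13), which leaves 67.7% of the control level. All 4 measured genes had every NICD1 array below every control array, as had 19.7% of all genes, and since the genes were picked with this contrast known the count supports nothing. By their mean over all 6 arrays, the 4 genes lay outside the dimmest 40%. Miox did so through its control arrays, and its NICD1 arrays were dim.

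**Figure D1:**
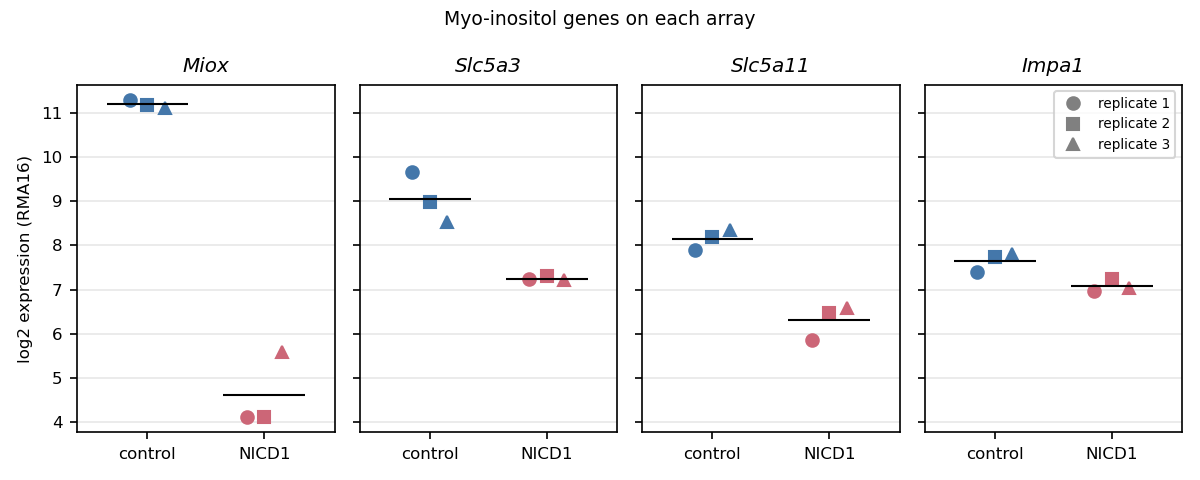
Log2 expression of Miox, Slc5a3, Slc5a11 and Impa1 on each of the 3 control (blue) and 3 NICD1 (red) arrays, with symbols for the replicate and a line at each group mean. Miox is at 11.11 or more in controls and at 5.59 or less in NICD1, Slc5a3 is spread in controls and tight in NICD1, and the groups of Impa1 are 0.16 apart at their nearest arrays.

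The low levels of Miox ran beside a loss of proximal tubule markers. All 13 markers of that segment fell (limma, adjusted p under 0.05), by between 1.33 and 7.30 log2, and their mean level went from 10.86 to 10.99 in controls to 6.26 to 7.31 in NICD1. Over all genes, 14.9% were called lower. The median of the 13 differences was -4.73, against 0.01 over all genes. The difference of Miox was larger than that of 12 of the 13, the exception being the amino acid transporter Slc7a13. The differences of Slc5a11 and Slc5a3 were larger than those of only 2 of the 13, the fatty acid transporter Slc27a2 (-1.47) and the tubule transcription factor Hnf4a (-1.33). NICD1 replicate 1 had the lowest level of 12 of the 13 markers and replicate 3 the highest of 10. Slc5a11 followed that order, Miox shared the high replicate 3 but not a lower replicate 1, and Slc5a3 was flat across the NICD1 arrays. In whole kidney, fewer proximal tubule cells and less RNA per cell cannot be told apart, and the part of either in the difference of Miox was not tested.

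**Figure D2:**
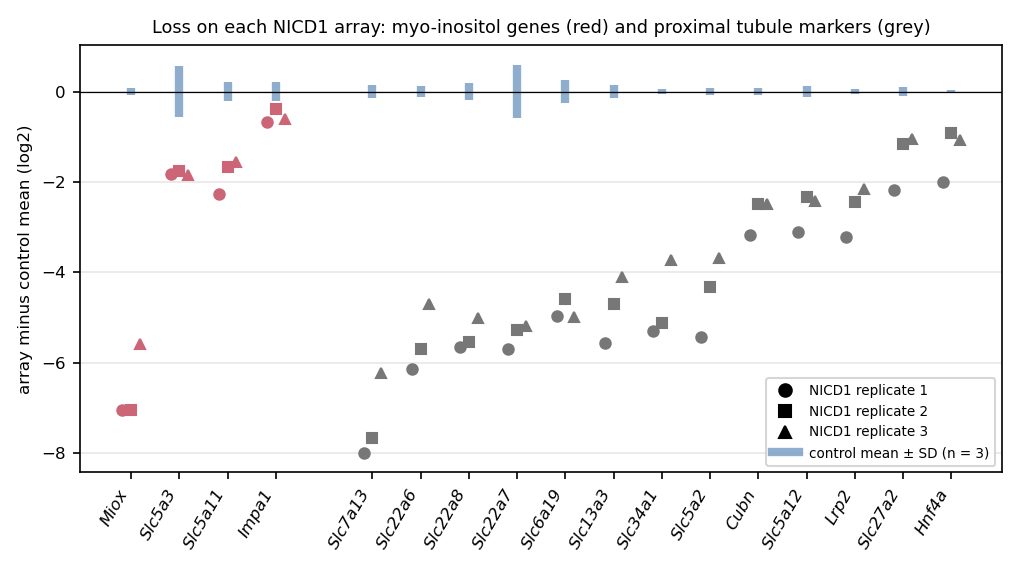
Level on each NICD1 array minus the control mean (log2) for the 4 myo-inositol genes (red) and 13 proximal tubule markers (grey), with blue bars for the control mean ± SD (n = 3) and symbols for the NICD1 replicate. Miox lies with the markers that fell most, while Slc5a3 and Slc5a11 lie near Slc27a2 and Hnf4a.

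Genes of other segments moved in less uniform ways, where 14.9% of all genes were called lower and 17.8% higher. Of 4 thick limb markers 2 fell, 1 rose and 1 did not pass, and their mean level was 9.62 to 9.71 in controls and 8.57 to 8.84 in NICD1. The salt transporter Slc12a1 fell by 2.71, whereas Umod rose by 0.32 (adjusted p = 0.0403). The groups of Umod were only 0.11 apart at their nearest arrays, and the array medians were higher in NICD1 as well. Of 5 principal cell markers 2 fell, 2 rose and 1 did not pass. All 3 distal convoluted tubule and all 4 intercalated cell markers fell. Endothelial markers fell in 3 of 5, at a mean level of 7.07 to 7.08 in controls and 5.36 to 6.45 in NICD1, and podocyte markers in 2 of 4, with 1 higher. Macrophage and fibroblast markers rose in 4 of 5 each, and the macrophage mean went from 4.98 to 5.05 in controls to 6.11 to 6.91 in NICD1. Of 4 lymphocyte markers 1 rose and 1 fell, all at levels under the median of each array.

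Slc5a3 shares its locus with Mrps6, and both genes were lower in NICD1. Mrps6 stood at 8.85, 8.64 and 8.31 in controls and at 7.70, 7.43 and 7.42 in NICD1. It fell by 1.08 (SE 0.15, limma adjusted p = 0.000462), against a difference of -1.81 for Slc5a3, and its controls followed the same order over a range of 0.54. Among the NICD1 arrays the order differed, with Mrps6 highest in replicate 1 and Slc5a3 in replicate 2. The probe sequences were not examined, so whether the Slc5a3 probe set reads transcripts that both genes share is not known here. Slc2a13, the proton-coupled inositol transporter, went from 5.75 ± 0.28 to 5.22 ± 0.18 (SD, n = 3), a fall of 0.53 (adjusted p = 0.0276) with all 3 NICD1 arrays under their medians. That call was lost on leaving out control replicate 1 (-0.44, adjusted p = 0.0999), control replicate 2 (-0.46, adjusted p = 0.104), NICD1 replicate 1 (-0.43, adjusted p = 0.0837) or NICD1 replicate 2 (-0.56, adjusted p = 0.0537).

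**Figure D3:**
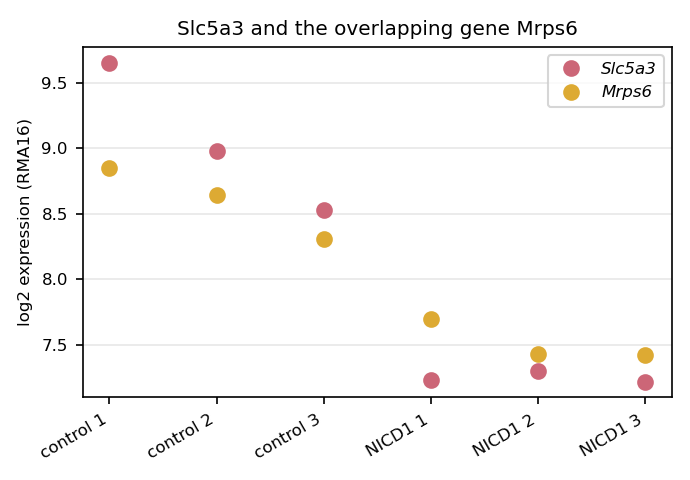
Log2 expression of Slc5a3 (red) and the overlapping gene Mrps6 (yellow) on each array. Both are highest in control replicate 1 and lowest in NICD1, and Slc5a3 has the wider range in controls.

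The measured genes that carry glucuronate onward, Akr1a1, Cryl1, Dcxr and Xylb, fell as well. In this route glucuronate is reduced to gulonate, oxidised and decarboxylated to xylulose, reduced to xylitol and returned to xylulose, which is phosphorylated and enters the pentose phosphate pathway. Of 8 measured genes of glucuronate and xylulose metabolism 6 fell, 0 rose and 2 did not pass. Among all genes, 14.9% were called lower and 17.8% higher. The median difference of the 8 was -1.15, against 0.01 over all genes. The list was drawn up with the low level of Miox known. Akr1a1, the glucuronate reductase, stood at 11.87, 11.99 and 11.97 in controls and at 10.68, 10.72 and 10.89 in NICD1 (-1.18, SE 0.10, adjusted p = 2.63e-05). Cryl1, the gulonate dehydrogenase, was at 10.21, 10.24 and 10.21 in controls and at 8.56, 9.23 and 8.89 in NICD1 (-1.33, SE 0.16, adjusted p = 0.000163). The groups of both enzymes were clear of each other by more than their own ranges.

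Further along the route, the xylulose reductase gene Dcxr stood at 8.84, 9.14 and 9.0 in controls against 7.14, 8.01 and 7.40 in NICD1 (-1.47, SE 0.20, adjusted p = 0.000425). The xylulokinase gene Xylb stood at 9.69, 9.72 and 9.63 against 7.61, 8.65 and 8.20 (-1.52, SE 0.22, adjusted p = 0.00057). In both, NICD1 replicate 1 was the lowest and replicate 2 the highest, unlike Miox, whose replicate 3 stood out. Sord, which joins xylitol to xylulose, is not analysed here. Ugp2 and Ugdh, which make UDP-glucose and from it UDP-glucuronate, fell by 1.12 (SE 0.15, adjusted p = 0.000399) and 0.98 (SE 0.14, adjusted p = 0.000529). Gulo, the last enzyme of vitamin C synthesis in mice, differed by -0.16 (adjusted p = 0.577), and the lactonase gene Rgn by 0.13 (adjusted p = 0.522). Both stood under the median on all 6 arrays. The 6 falls were called in each fit that left out a single array. The proximal tubule markers given above fell on the same arrays, and their part in these falls was not tested.

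Osmolyte genes moved both ways. Among the 6 measured, 2 were called higher, 2 lower and 2 did not pass, or 33.3% in each direction, against 17.8% higher and 14.9% lower over all genes. Nfat5, which encodes the factor that raises transcription of osmolyte transporters in hypertonic cells, stood at 7.21, 7.14 and 7.14 in controls and at 8.15, 7.74 and 7.89 in NICD1. The groups did not overlap, and Nfat5 rose by 0.76 (SE 0.12, adjusted p = 0.00101). The amino acid transporter Slc38a2, which hypertonicity and amino acid shortage both induce, rose by 1.6 (SE 0.16, adjusted p = 6.6e-05). The betaine transporter Slc6a12 stood at 5.67, 5.55 and 5.56 in controls and at 5.0, 5.16 and 5.31 in NICD1, and fell by 0.43 (SE 0.11, adjusted p = 0.0136). Of the windows upstream of its several annotated starts, 1 holds a TonE match, 65 to 75 bases before the start, and 3 hold the RBPJ core, which was also found upstream of Nfat5. Pnpla6, whose enzyme releases the osmolyte glycerophosphocholine from membrane lipid, fell by 0.52 (adjusted p = 0.00342), and a window upstream of it has a TonE match 158 to 168 bases before the start. Such matches were not confined to osmolyte genes. TonE matches also lay upstream of the phosphoinositide genes Inpp4a and Itpkb, and RBPJ cores upstream of genes such as Inpp5d and Bpnt1.

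The taurine transporter Slc6a6 was uniform in controls, at 9.66, 9.66 and 9.68, and spread in NICD1, at 9.46, 9.82 and 10.17. It differed by 0.15 (adjusted p = 0.562), but by 0.60 (adjusted p = 0.0266) after quantile normalization. The chaperone gene Hspa4l differed by 0.30 (adjusted p = 0.0962), and it passed with array weights (0.37, adjusted p = 0.029) and without NICD1 replicate 1 (0.41, adjusted p = 0.0228). Akr1b3, the aldose reductase that makes sorbitol, is not analysed here.

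Other transporters of the SLC5 family, to which Slc5a3 and Slc5a11 belong, fell or did not pass. Among the 11 measured, 6 fell (54.5%) and 0 rose, with 5 not passing (median -0.39 against 0.01 over all genes). The shares over all genes were 14.9% lower and 17.8% higher. The glucose transporter Slc5a2 fell by 4.48 (SE 0.35, adjusted p = 1.41e-05), and Slc5a10, which carries fructose and mannose, by 4.30 (SE 0.14, adjusted p = 1.52e-07). The monocarboxylate transporters Slc5a8 and Slc5a12 fell by 3.18 (SE 0.23, adjusted p = 8.49e-06) and 2.63 (SE 0.19, adjusted p = 8.95e-06). These 4 falls exceed the differences of Slc5a11 and Slc5a3, and Slc5a2 and Slc5a12 are also among the proximal tubule markers. The other two falls were smaller, 0.65 for the vitamin transporter Slc5a6 and 0.39 for the glucose transporter Slc5a1. The call of Slc5a1 was lost without control replicate 1 (-0.34, adjusted p = 0.0652), control replicate 3 (-0.36, adjusted p = 0.0723) or NICD1 replicate 2 (-0.37, adjusted p = 0.0631) and after quantile normalization (-0.32, adjusted p = 0.0552). Of the 5 that did not pass, 4 stood under the median on all arrays.

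**Figure D4:**
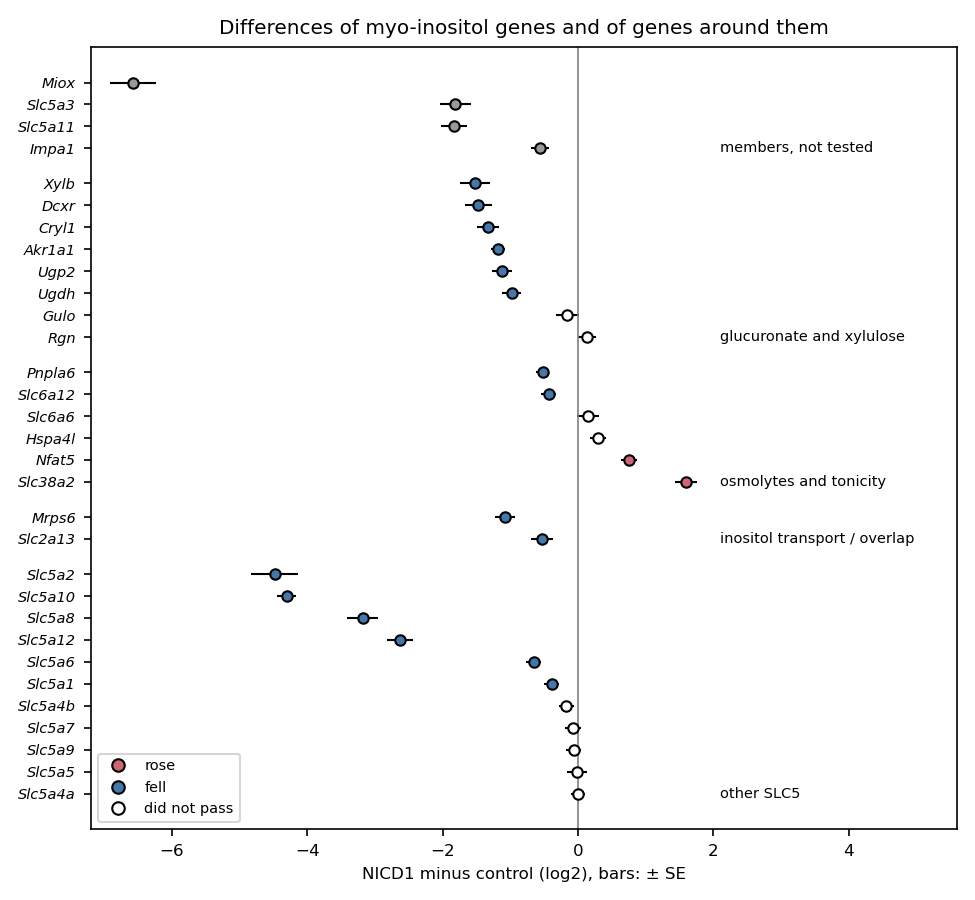
NICD1 minus control (log2) with ± SE from the limma fit for the 4 myo-inositol genes (grey, not tested) and for genes of the glucuronate route, osmolytes, inositol transport with the overlapping Mrps6, and other SLC5 transporters, coloured by their call. Miox (-6.57) lies far from the enzymes after it in the route, which lie between -1.18 and -1.52.

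Genes of inositol lipid and inositol phosphate metabolism, kinases as well as phosphatases, moved both ways. Of the list's 35 genes, all measured, 7 rose and 8 fell, while 20 did not pass. The median difference was -0.03, and 20.0% rose and 22.9% fell, against 17.8% and 14.9% of all genes. Bpnt1, a lithium-sensitive phosphatase of the same superfamily as Impa1, stood at 10.02, 10.04 and 10.11 in controls and at 8.63, 8.39 and 8.52 in NICD1 (-1.54, SE 0.10, adjusted p = 5.78e-06). The other members of that superfamily on the list did not pass: Bpnt2 differed by 0.00 (adjusted p = 0.986) and Inpp1 by -0.43 (adjusted p = 0.0609). Inpp1 passed as lower under several other settings, quantile normalization (-0.54, adjusted p = 0.0229) among them. The kinase gene Pi4ka, which makes phosphatidylinositol 4-phosphate at the plasma membrane, fell by 1.49 (SE 0.12, adjusted p = 1.7e-05), and the 5-phosphatase genes Inpp5b and Inpp5j by 1.11 (adjusted p = 2.23e-05) and 0.93 (adjusted p = 0.000766).

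Cdipt, whose enzyme joins free inositol to a lipid, fell by 0.42 (SE 0.10, adjusted p = 0.0125), a call lost without control replicate 3 (-0.40, adjusted p = 0.0506). Inpp5d, a phosphatase of blood cells, had the largest rise on the list, from 5.07 ± 0.16 to 5.93 ± 0.24 (SD, n = 3), a difference of 0.86 (SE 0.14, adjusted p = 0.00136). Macrophage markers rose on the same arrays, and their part in this rise was not tested. Cds1, which makes the lipid that Cdipt uses, rose by 0.50 (adjusted p = 0.00408), Itpkc, an inositol trisphosphate kinase, by 0.41 (adjusted p = 0.0082) and Ppip5k1, an inositol pyrophosphate kinase, by 0.45 (adjusted p = 0.0157). These rises were small: between 3 and 7 genes were called higher when single arrays were left out, and 3 after centring of the arrays, while Ppip5k1 lost its call without control replicate 1 (0.41, adjusted p = 0.0556), control replicate 3 (0.43, adjusted p = 0.0568) or NICD1 replicate 2 (0.36, adjusted p = 0.0617) and after centring (0.33, adjusted p = 0.065).

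**Figure D5:**
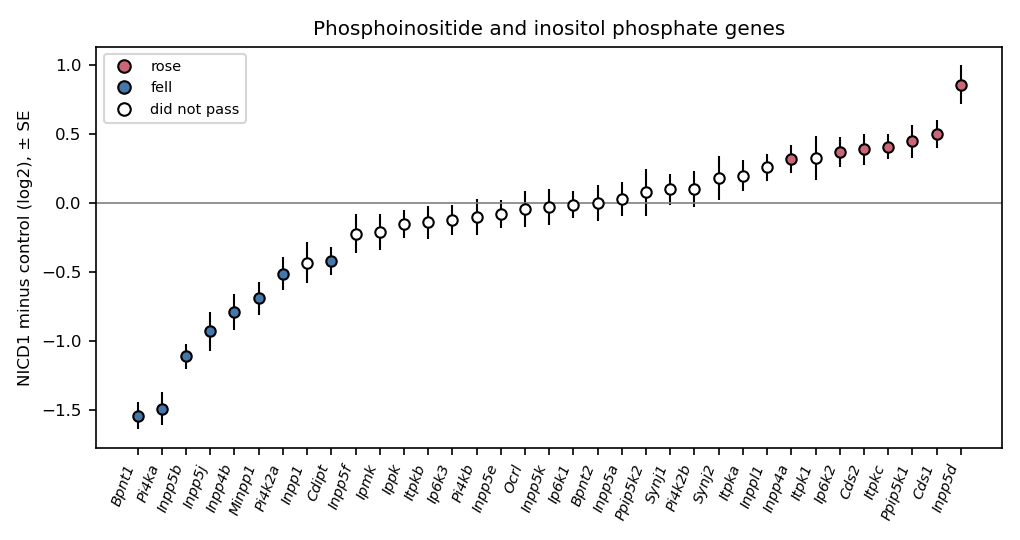
NICD1 minus control (log2) with ± SE for 35 phosphoinositide and inositol phosphate genes in order of difference, coloured by their call. Differences run from -1.54 for Bpnt1 to 0.86 for Inpp5d, and 20 genes did not pass.

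Likeness to each myo-inositol gene was measured as the root mean square difference of log2 profiles over the 6 arrays, each gene taken relative to its control mean. The 5 named genes nearest to Miox were Inmt (0.33), the anion transporter Slco1a1 (0.38), the glucuronosyltransferase Ugt2b38 (0.41), the organic ion transporter Slc22a22 (0.43) and the glycosyltransferase Ugt3a1 (0.51). Inmt stood at 11.30, 11.92 and 11.78 in controls and at 4.93, 5.07 and 5.88 in NICD1, with replicate 3 the highest as for Miox. The genes nearest to Slc5a3 were Cyfip2 (0.20), Lipo3 (0.20) and the matrix gene Fbln5 (0.23). Each had its highest control in replicate 1 and its lowest in replicate 3. Lipo3, for example, stood at 6.23, 5.53 and 4.85 in controls. Shared orders like these, and that of Inmt with Miox, are favoured by picking the nearest genes on the same 6 arrays. They are given as descriptions only. Slc5a11 was nearest to the deaminase gene Rida (0.09), the peptidase gene Pepd (0.10) and the elongation factor gene Tcea3 (0.12). Impa1 was nearest to Sycp3 (0.04), Lysmd1 (0.04) and Mia2 (0.05), but 1662 named genes lay within 0.25 of it, so this likeness singles out little. No named gene lay within 0.25 of Miox, 5 did of Slc5a3 and 102 of Slc5a11. The measure is not scaled to the size of a gene's difference, so these counts cannot be compared between the myo-inositol genes.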

How the data were processed

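Whole-kidney RNA was measured on 6 Affymetrix arrays, 3 per group. Per the labels' protocols, the authors normalized the raw values with RMA16 in GeneSpring, and the deposited values are log2 expression per probe set. For the GeneSpring version, scan batches and detection calls, nothing is stated in those sources, and the number of arrays limits the precision. Of 34760 probe sets, 6573 numbered below the lowest annotated one were left out. The platform annotation gave 1 symbol to 21640 probe sets and several to 1321. A gene was read from whichever of its single-symbol probe sets was brightest on average. The comparison used limma 3.58.1 under R 4.3.3 (lmFit and eBayes, two-sided, Benjamini-Hochberg over 19937 genes, threshold 0.05, no filter on low values), which was tested on simulated data. Every adjusted p in the text comes from that fit or its stated alternative. Same-numbered arrays did not deviate together (correlations of -0.07 to -0.01), so the numbers were not taken as pairs. The genes, lists and tests were chosen with earlier results of these data known. By rule, the text names every gene of the glucuronate, osmolyte and inositol transport lists, up to 4 called genes with the lowest p in each direction of the other pathway lists, and the genes nearest in profile. Cdipt, Bpnt2, Inpp1, Slc5a1 and Slc5a6 were named after their values were seen. Impad1 was matched to its current symbol Bpnt2. Alternatives were the mean over probe sets, quantile normalization, centring on array medians, a fit without the dimmest 40% of genes, eBayes with trend and robust options, array weights, a replicate block, and fits that left out single arrays.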

Additional observations from a re-analysis of the deposited data

How the results depend on the processing

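Miox, Slc5a3, Slc5a11 and Impa1 were lower in NICD1 under every alternative run. Leaving out each array in turn gave -7.06 to -6.33 for Miox, -2.07 to -1.51 for Slc5a3, -1.97 to -1.61 for Slc5a11 and -0.68 to -0.49 for Impa1, and with the replicate block, a pairing the arrays do not bear out, SEs were 0.29, 0.20, 0.12 and 0.12. Over all genes, 32.7% were called, 17.8% as higher and 14.9% as lower. Of 62 pathway genes, 33 were called, 9 higher and 24 lower. The higher calls numbered 5 after centring of the arrays and 5 to 9 on leaving out single arrays, and the lower calls 22 to 24. With the replicate block 32 were called, 7 higher. Inpp4a and Ip6k2 lost and Inpp1 gained a call. No call of a pathway gene turned its direction. Among all genes 6529 were called, 5981 with the replicate block and 5275 to 6278 on leaving out single arrays (2816 to 3488 higher, 2459 to 2811 lower). After centring, the median difference over all genes was -0.108 in place of 0.015, and 39.4% of calls were higher in place of 54.4%. Without detection calls, the NICD1 level of Miox and the levels of Rgn and Gulo cannot be placed against background.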
